A study of Mus musculus with 6 samples.

Results

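The metalloproteinases of the matrix and of the cell surface, with their inhibitors, were described in cultured dermal cells of neonatal mice on 83 genes of 19938 measured. They were taken by symbol, as the numbered Mmp (22 genes), Adam (34), Adamts (18), Adamtsl (5) and Timp (4) genes among probe sets with exactly 1 gene symbol, with the probe set of the highest mean over the 6 arrays standing for a gene. Mmp15 and Adamts2 had no such probe set and were not analysed here. Cells from skin of C57BL/6 mice had been kept for 2 days either with forskolin and RepSox together, each at 20 µM (labelled FR, 3 arrays), or without them (labelled DMSO, 3 arrays). Forskolin activates adenylyl cyclase, which makes cyclic AMP, and RepSox inhibits the kinase of the TGF-β type I receptor. No arm received only 1 of the compounds, so their effects cannot be told apart, and whether the 3 RNAs of a group were cultured apart is not in the labels. Fewer cells of a type and less RNA per cell cannot be told apart in such bulk RNA.

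Matrix metalloproteinases (MMPs) are zinc enzymes that cut collagens and other matrix proteins. ADAMs are membrane proteins, and the active ones release the outer part of growth factors and receptors from the cell surface. ADAMTS enzymes are secreted and cut proteoglycans, procollagens and microfibril proteins, while ADAMTS-like (ADAMTSL) proteins share their layout but lack the protease domain. Tissue inhibitors of metalloproteinases (TIMPs) block MMPs and, in the case of TIMP3, several ADAMs and ADAMTSs. In dermis fibroblasts are a main source of these proteins.

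Values are log2 RMA levels, an array scale on which a difference of 1 is 2-fold, and a change is the mean over the FR arrays less that over the DMSO arrays. Levels of different genes are not set against each other, since each probe set binds differently. A gene was called where limma's adjusted p over all genes was under 0.05. Of all genes, 27.9% were called, 13.4% higher and 14.5% lower. With each array centred on its median, the numbers called moved from 2671 higher and 2888 lower to 1880 and 3447. Array medians lay from 5.983 to 6.002 in DMSO and from 6.015 to 6.074 in FR. A level of 5.65, the 95th percentile of 1027 olfactory receptor genes in DMSO, was taken as background. Olfactory receptor genes themselves shifted up by a median of 0.139 with FR, and 9.93% of them were called higher against 0.584% lower. All genes together had a median change of 0.053.

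The families did not move as 1 block. Of the 83 genes, 17 were higher and 17 lower with FR (41% called, against 27.9% of all genes), with a median change of 0.059. Among MMPs 3 were higher and 8 lower, and among ADAMTSs 8 were higher and 3 lower. TIMPs had 1 higher and 2 lower, and ADAMTSLs had 0 higher and 2 lower. ADAMs had 5 higher and 2 lower, a share called of 20.6%, and both of the lower ones were below background in both groups. Without DMSO replicate 1, 1 ADAMTS gene was lower in place of 3. With DMSO replicate 1 or DMSO replicate 2 left out, 1 ADAM gene was lower, and this number was 0 when FR replicate 1, FR replicate 3 or DMSO replicate 3 was left out. With the replicate number as a block it was also 0. Changes of at least 2-fold were found for 8 of the 83, 2 higher and 6 lower, against 1.63% of all genes higher and 1.5% lower. On the 6 arrays, FR and DMSO values did not overlap for 41 of the 83 genes, against 43.9% of all genes. Medians by family were 0.043 for MMPs, 0.055 for ADAMs, 0.2 for ADAMTSs, -0.058 for ADAMTSLs and -0.308 for TIMPs. Differences between families were not tested.

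**Figure D1:**
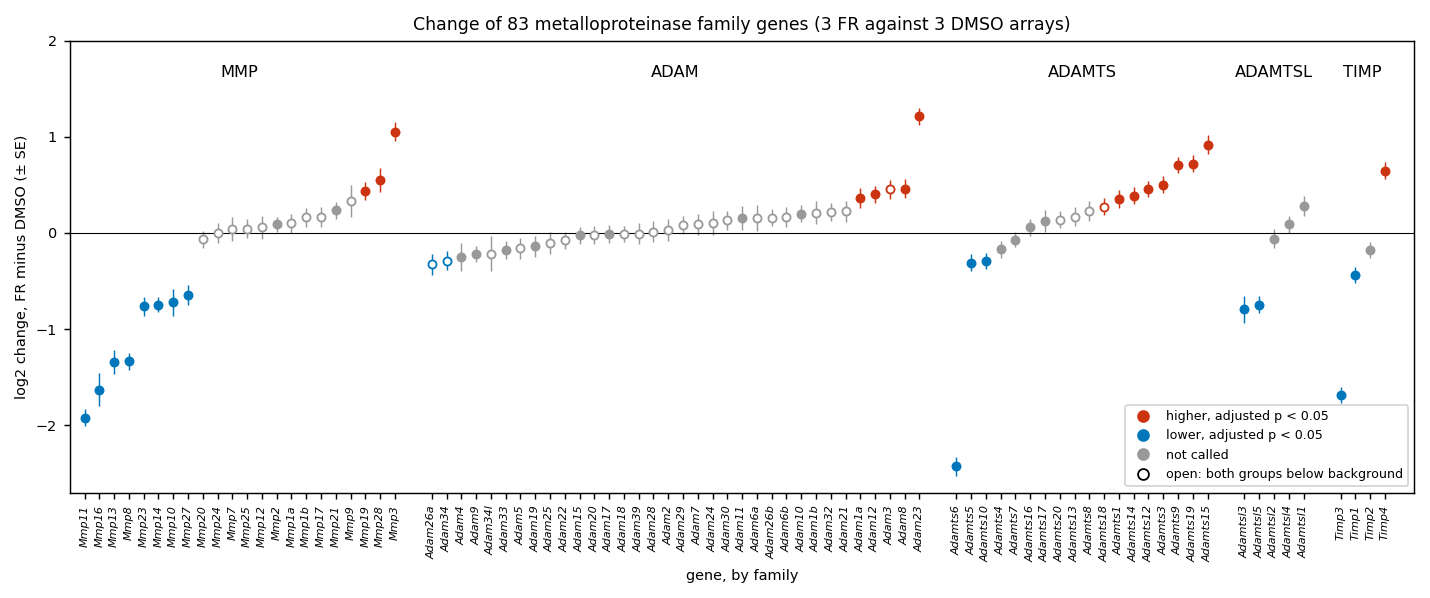
Log2 change (FR minus DMSO, bars are the standard error from limma) of each of the 83 genes by family, 3 arrays a group. Red and blue points were called higher and lower, grey points were not called, and open points lay below background in both groups. The MMP, ADAMTS and TIMP families each hold changes in both directions, and most ADAMs sit near 0.

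A run of 10 MMP genes stands on chromosome 9 with no other protein-coding gene between its members in the RefSeq gene table, and it includes genes that moved in opposite directions. Of these 10 genes, 4 were lower, 1 was higher and 5 were not called, and those 5 lay below background in both groups. In chromosomal order the run reads Mmp13, Mmp12, Mmp1b, Mmp3, Mmp1a, Mmp10, Mmp8, Mmp27, Mmp20 and Mmp7. Mmp3, the only one that rose, lies between the lower genes Mmp13 and Mmp10. The transcription factor AP-1, a dimer of Fos and Jun proteins, is known to drive several of these promoters. RefSeq promoters (GRCm38.p6, from 250 bases before to 50 after the annotated start) were searched on both strands for the AP-1 motif TGANTCA. The motif was found in the promoters of 8 of the 10 genes, whereas 7.81% of all 32851 promoters in the table hold it. The promoters of Mmp8 and Mmp27 do not hold these letters in the window. The 120 bases before the start are shown for the 5 genes of the run that were called. The gene that rose can thus be set beside the lower genes of the run, none of which is directly next to it. All 5 lie on the plus strand, at chr9:7272394-7272513 for Mmp13, chr9:7445702-7445821 for Mmp3, chr9:7502222-7502341 for Mmp10, chr9:7558309-7558428 for Mmp8 and chr9:7571276-7571395 for Mmp27. Capitals mark the AP-1 motif.
Mmp13: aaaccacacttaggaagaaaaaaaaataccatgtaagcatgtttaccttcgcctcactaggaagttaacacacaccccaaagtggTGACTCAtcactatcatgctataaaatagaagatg
Mmp3: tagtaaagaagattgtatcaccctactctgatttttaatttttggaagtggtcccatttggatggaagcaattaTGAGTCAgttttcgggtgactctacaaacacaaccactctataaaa
Mmp10: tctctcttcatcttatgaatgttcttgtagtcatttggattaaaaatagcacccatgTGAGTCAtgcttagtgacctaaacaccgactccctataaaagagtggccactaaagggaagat
Mmp8: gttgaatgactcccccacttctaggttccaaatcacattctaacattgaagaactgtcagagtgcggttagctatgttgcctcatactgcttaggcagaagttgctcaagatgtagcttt
Mmp27: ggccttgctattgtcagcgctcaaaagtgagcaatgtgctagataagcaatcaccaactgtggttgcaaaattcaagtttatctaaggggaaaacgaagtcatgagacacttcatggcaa
The last base of the motif lies 29 bases before the annotated start of Mmp13, 40 before that of Mmp3 and 57 before that of Mmp10. Mmp3 and Mmp10 carry the same 7 letters in the same direction, and Mmp13 carries them as read on the other strand. Genes with the motif were thus found in both directions of change and among the dim genes, and both genes without it were lower. Over all families, 13 of the 52 genes with a promoter in the table hold the motif. The cyclic AMP response element, to which CREB binds, was searched as TGACGTCA on both strands and found in 0 of these 52 genes, against 1.79% of all promoters. With so small a share, 0 among 52 genes says little. Its shorter core TGACG was found in 7 of the 52, against 20.8% of all promoters. Of the genes with this core, Adamts1, Adamts3, Adamts9 and Adamts12 were called higher, Timp1 and Adamtsl3 lower, and Adam10 was not called. For each motif, a gene was counted if any of its promoters held it, while shares are over single promoters.

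**Figure D2:**
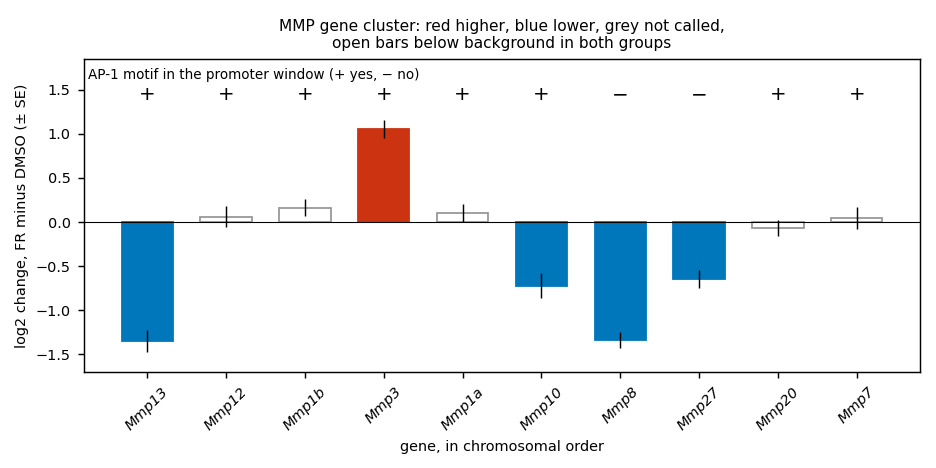
Log2 change (FR minus DMSO, error bars are the standard error from limma, 3 arrays a group) of the 10 neighbouring MMP genes in chromosomal order, with a plus or minus for the AP-1 motif in the promoter. Mmp3 is the only bar clearly above 0, and Mmp13, Mmp10, Mmp8 and Mmp27 are below.

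Among the collagenases, which cut fibrillar collagen, both genes with a level above background fell. Mmp13, collagenase-3, read 7.53, 7.41 and 7.87 on the DMSO arrays and 6.31, 6.38 and 6.09 on the FR arrays. It was 2.54-fold lower (log2 change -1.35, SE 0.125, adjusted p = 1.8e-05), and the groups did not overlap. Mmp8, collagenase-2, known best from neutrophils, read 6.53, 6.48 and 6.74 in DMSO and 5.25, 5.26 and 5.23 in FR. All 3 FR values lay below the background level, so the gene was at least 1.904-fold lower, with FR set at background (measured log2 change -1.34, adjusted p = 1.82e-06). Mmp1a and Mmp1b, the mouse counterparts of human interstitial collagenase, lay below background on all arrays.

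The stromelysin genes split. Stromelysin-1 and stromelysin-2 cut a broad range of matrix proteins and can activate other MMPs. Mmp3, stromelysin-1, read 7.83, 7.76 and 7.89 in DMSO and 8.96, 9.01 and 8.67 in FR. Its rise was 2.08-fold (log2 change 1.05, SE 0.103, adjusted p = 2.56e-05). Mmp10, stromelysin-2, read 6.31, 6.48 and 6.62 in DMSO and 5.77, 5.44 and 6.04 in FR. The groups did not overlap, although 1 FR array was below background, and the fall was 1.65-fold (log2 change -0.72, adjusted p = 0.00338). With ordinary variance this call was lost (adjusted p = 0.0869), and elsewhere adjusted p was as low as 0.000478. Mmp11, stromelysin-3, is a fibroblast enzyme that furin activates inside the cell. It read 9.66, 9.64 and 9.73 in DMSO and 7.85, 7.66 and 7.76 in FR. This was the largest fall among the MMPs, 3.78-fold (log2 change -1.92, SE 0.0860, adjusted p = 1.11e-07). Mmp27, a little studied relative in the chromosome 9 run, read 7.05, 6.84 and 7.04 in DMSO and 6.52, 6.28 and 6.21 in FR (log2 change -0.64, adjusted p = 0.00101).

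The membrane-bound MMPs that were called were all lower. Mmp14 (MT1-MMP) is a collagenase of the cell surface that also activates the proenzyme of MMP2. It read 10.94, 10.97 and 10.99 in DMSO and 10.27, 10.25 and 10.14 in FR, a tight separation (1.68-fold lower, log2 change -0.74, SE 0.0809, adjusted p = 5.69e-05). Mmp16 (MT3-MMP) read 7.36, 7.47 and 7.40 in DMSO and 6.03, 6.03 and 5.28 in FR. The third FR array was lower than the other two and below background, and the change stayed called without it (log2 change -1.63 with all arrays, SE 0.173, adjusted p = 4.84e-05). Mmp23, which is anchored by its amino-terminal end, read 8.90, 8.85 and 9.12 in DMSO and 8.25, 8.28 and 8.05 in FR (log2 change -0.76, adjusted p = 0.000248). Of the other membrane types, Mmp17, Mmp24 and Mmp25 lay below background in both groups and were not called.

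The gelatinases cut denatured collagen and type IV collagen. Mmp2, gelatinase A, read 11.34, 11.31 and 11.35 in DMSO and 11.45, 11.48 and 11.34 in FR. The groups overlapped, and the change was 0.09 with a 95% interval from -0.09 to 0.27 (adjusted p = 0.437). Mmp9, gelatinase B, stayed below background on all 6 arrays. The other MMPs that rose were Mmp19 and Mmp28. Mmp19 read 8.48, 8.61 and 8.65 in DMSO and 9.12, 9.03 and 8.88 in FR (log2 change 0.44, adjusted p = 0.00558). Mmp28, epilysin, known from keratinocytes, read 5.64, 5.31 and 5.08 in DMSO, all below background, and 5.94, 5.91 and 5.83 in FR. It was at least 1.18-fold higher with DMSO set at background (measured log2 change 0.55, adjusted p = 0.00828, from 0.00102 to 0.105 over the alternatives), and with ordinary variance the call was lost. Mmp21 read 0.24 higher in FR and was not called (adjusted p = 0.0709). Mmp7, Mmp12 and Mmp20, known from epithelia, macrophages and teeth, were below background in both groups.

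The inhibitor genes also moved in both directions. Timp3, the inhibitor that binds to matrix and also blocks ADAM17 and several ADAMTSs, read 10.05, 10.18 and 10.18 in DMSO and 8.54, 8.43 and 8.38 in FR. It was 3.22-fold lower (log2 change -1.68, SE 0.0865, adjusted p = 2.57e-07). Timp1, a soluble inhibitor of most MMPs, read 11.12, 11.10 and 11.28 in DMSO and 10.74, 10.69 and 10.75 in FR (log2 change -0.44, adjusted p = 0.00309). Neither gene's groups overlapped. Timp2, which with MMP14 forms the complex that activates the MMP2 proenzyme, read 10.96, 10.90 and 10.95 in DMSO and 10.82, 10.76 and 10.69 in FR. Its change was -0.18 and was not called (adjusted p = 0.124, 95% interval from -0.36 to -0.0005), and with a variance trend and robust moderation it was called (adjusted p = 0.0166, from there to 0.274 over the alternatives). Timp4 read 5.13, 5.20 and 5.34 in DMSO, below background, and 5.83, 5.84 and 5.94 in FR. It was at least 1.16-fold higher with DMSO set at background (measured log2 change 0.65, adjusted p = 0.000278).

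**Figure D3:**
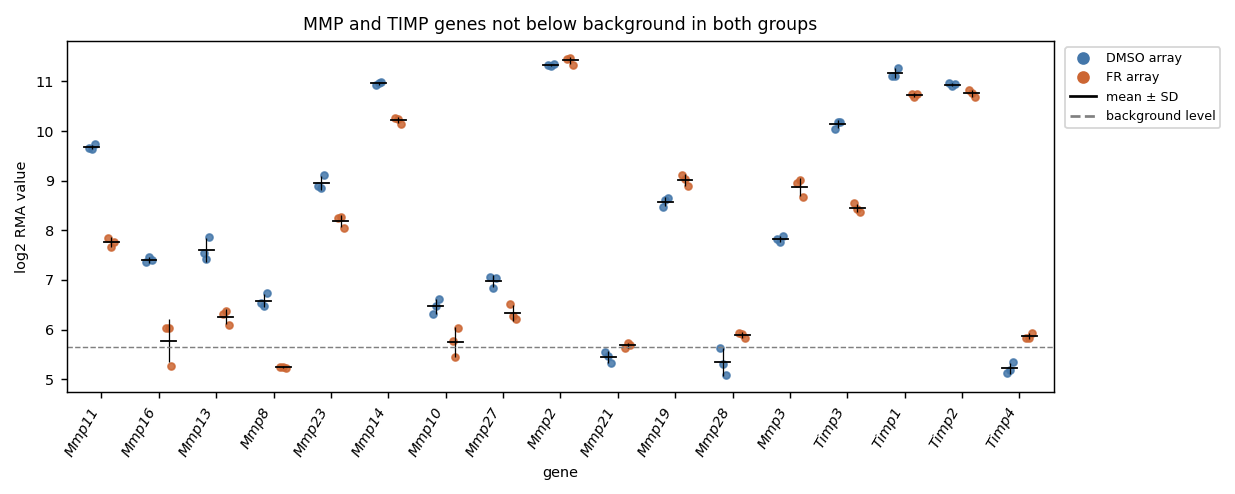
Log2 RMA value on each array (blue DMSO, orange FR, 3 arrays a group) of the 13 MMP and 4 TIMP genes not below background in both groups, with mean and SD. The dashed line is the background level of 5.65. Mmp11, Mmp16, Mmp13, Mmp8 and Timp3 show the widest gaps downward, and Mmp3 the widest upward.

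Of the related pair Adamts6 and Adamts10, both were lower. Adamts6, an enzyme tied to fibrillin microfibrils, read 7.06, 7.02 and 6.78 in DMSO and 4.62, 4.52 and 4.44 in FR. The DMSO values all lay above background and the FR values all below it, so the gene was at least 2.46-fold lower with FR set at background (measured log2 change -2.43, SE 0.0991, adjusted p = 7.48e-08). Adamts10, its closest relative, read 7.44, 7.51 and 7.37 in DMSO and 7.09, 7.21 and 7.16 in FR (log2 change -0.29, adjusted p = 0.0258). Adjusted p ran from 0.0101 to 0.105 over the alternatives, and the call did not hold without DMSO replicate 1 (0.0751) or 2 (0.105), without FR replicate 1 (0.0588) or 3 (0.05), or with quantile normalization (0.0585) or cyclic loess (0.0506).

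The ADAMTS enzymes that cut the large proteoglycans aggrecan and versican moved in both directions. Of the 7 such genes, 3 were higher, 1 was lower and 3 were not called. Adamts15 read 6.13, 6.01 and 6.02 in DMSO and 7.14, 6.88 and 6.89 in FR, 1.89-fold higher (log2 change 0.92, SE 0.0955, adjusted p = 4.12e-05). Adamts9 read 7.004, 6.98 and 6.88 in DMSO and 7.66, 7.74 and 7.59 in FR (log2 change 0.71, adjusted p = 0.000115). All 6 of its probe sets read higher, by 0.29 to 1.08, and 5 of them were called when every probe set was tested. Adamts1 and Adamts5 are neighbours on chromosome 16 and were called in opposite directions. Adamts1 read 9.33, 9.31 and 9.38 in DMSO and 9.78, 9.75 and 9.55 in FR (log2 change 0.35, adjusted p = 0.0139). Adamts5, the main aggrecan-cutting enzyme of mouse cartilage, read 9.95, 9.83 and 9.91 in DMSO and 9.67, 9.53 and 9.58 in FR (log2 change -0.31, adjusted p = 0.0193). Neither pair of groups overlapped, but both calls were close to the threshold. For Adamts1, adjusted p ran from 0.00107 to 0.0544 over the alternatives, and the call did not hold when DMSO replicate 2 was left out (0.0516) or with ordinary variance (0.0544). For Adamts5 it ran from 0.00144 to 0.0808, and the call did not hold when DMSO replicate 1 (0.0808) or 3 (0.0651) or FR replicate 2 (0.0536) was left out. Adamts4, a further aggrecan-cutting enzyme, had a change of -0.17 that was not called (adjusted p = 0.178), and Adamts8 and Adamts20 lay below background.

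The procollagen-processing enzymes Adamts3 and Adamts14 were both higher. They belong to the group that removes the amino-terminal propeptide of fibrillar procollagens, and ADAMTS3 also processes the lymphatic growth factor VEGF-C. Adamts2 had no probe set with exactly 1 gene symbol, so nothing can be said of it here. Adamts3 read 6.35, 6.22 and 6.10 in DMSO and 6.76, 6.69 and 6.73 in FR (log2 change 0.50, adjusted p = 0.0018). It has 16 probe sets, of which 8 lay below background in both groups. Their changes ran from 0.02 to 0.87, with 5 called higher and 0 lower when every probe set was tested. Adamts14 had a log2 change of 0.39 (adjusted p = 0.00554), with DMSO values of 6.01, 6.14 and 6.11 and FR values of 6.55, 6.44 and 6.44. Adamts12, which cuts cartilage oligomeric matrix protein, read 7.39, 7.35 and 7.23 in DMSO and 7.80, 7.78 and 7.77 in FR (log2 change 0.46, adjusted p = 0.00182). Its close relative Adamts7 was not called (log2 change -0.07, adjusted p = 0.546). Adamts19 read 5.15, 5.06 and 5.15 in DMSO, below background, and 5.99, 5.75 and 5.79 in FR. It was at least 1.14-fold higher with DMSO set at background (measured log2 change 0.72, adjusted p = 0.000174). Adamts18 was called higher within the background range (log2 change 0.27, adjusted p = 0.0423). Olfactory receptor genes shifted by a median of 0.139, and the call was lost under 11 other settings, each array left out but FR replicate 3 among them (adjusted p from 0.0178 to 0.269). Adamts13, which cuts von Willebrand factor and is made mainly in liver, was below background. Adamts16 and Adamts17 were not called, although 1 of the 5 probe sets of Adamts17 was called higher when every probe set was tested (log2 change 0.41).

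The ADAMTS-like genes that were called were both lower. Adamtsl5 read 8.18, 8.27 and 8.16 in DMSO and 7.37, 7.58 and 7.41 in FR (1.68-fold lower, log2 change -0.75, SE 0.0881, adjusted p = 0.000102). Adamtsl3 read 6.12, 5.95 and 5.72 in DMSO and 4.92, 5.43 and 5.05 in FR. The FR values were below background, and the gene was at least 1.21-fold lower with FR set at that level (measured log2 change -0.79, adjusted p = 0.00164). With ordinary variance the call was lost (adjusted p = 0.0674, and as low as 0.000204 elsewhere). Adamtsl2 and Adamtsl4 had changes of -0.06 and 0.09 that were not called (adjusted p = 0.701 and 0.467). Adamtsl1 had a change of 0.28 that was not called (adjusted p = 0.0693). It was called higher with dim genes left out (adjusted p = 0.0344), with the mean of its probe sets (0.0432) and without DMSO replicate 1 (0.043), and over the alternatives adjusted p reached 0.248.

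**Figure D4:**
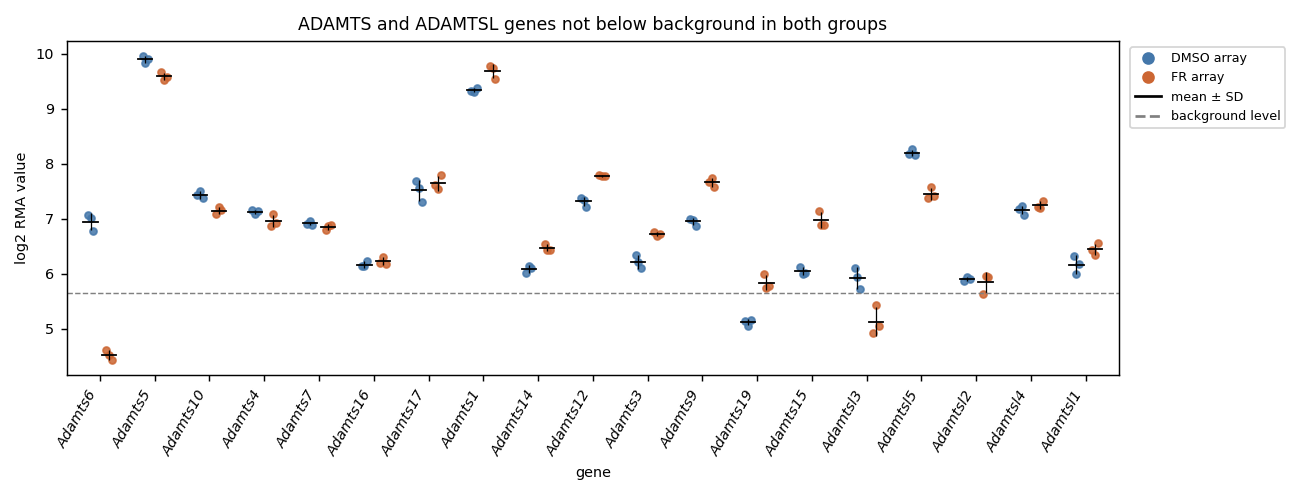
Log2 RMA value on each array (blue DMSO, orange FR, 3 arrays a group) of the 14 ADAMTS and 5 ADAMTSL genes not below background in both groups, with mean and SD. The dashed line is the background level of 5.65. Adamts6 drops through that level, Adamts15, Adamts9 and Adamts19 are raised, and Adamts5 and Adamts1 shift in opposite directions.

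The general sheddases of the ADAM family were not called. Adam17, which releases tumour necrosis factor and ligands of the EGF receptor, read 8.96, 8.96 and 8.93 in DMSO and 9.07, 8.94 and 8.80 in FR. The groups overlapped, with a change of -0.01 and a 95% interval from -0.21 to 0.19 (adjusted p = 0.939). Adam10, which cuts Notch receptors and cadherins, read 9.04, 9.08 and 9.05 in DMSO and 9.40, 9.16 and 9.21 in FR. Its groups did not overlap, and the change of 0.20 was not called (adjusted p = 0.12, 95% interval from 0.003 to 0.395). With quantile normalization or cyclic loess it was called (log2 change 0.26 and 0.28, adjusted p = 0.0326 and 0.0221), and over the alternatives adjusted p reached 0.324. Adam9, Adam15, Adam19 and Adam33, further active members with a level above background, had changes of -0.22 (adjusted p = 0.076), -0.03 (0.85), -0.14 (0.358) and -0.17 (0.179). Adam9 was called lower once each array was centred on its median (0.0457 as adjusted p), with dim genes left out (0.0399) and with a variance trend and robust moderation (0.0114), and over the alternatives its adjusted p reached 0.194.

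The ADAM gene with the largest change encodes a protein without protease activity. Adam23, an adhesion protein known from neurons that binds LGI proteins, read 8.74, 8.73 and 8.75 in DMSO and 10.06, 9.97 and 9.84 in FR. The rise was 2.32-fold (log2 change 1.21, SE 0.0855, adjusted p = 2.37e-06), and it was the largest measured rise among the 83 genes. Its inactive relatives Adam22 and Adam11 were near or below background and were not called. Adam12, meltrin alpha, an active member known from muscle and from activated mesenchyme, read 8.72, 8.67 and 8.75 in DMSO and 9.20, 9.17 and 8.98 in FR (log2 change 0.40, adjusted p = 0.00653). Adam8, known best from leukocytes, read 5.49, 5.58 and 5.57 in DMSO, below background, and 5.96, 6.18 and 5.88 in FR. It was at least 1.28-fold higher with DMSO set at background (measured log2 change 0.46, adjusted p = 0.00476).

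Most ADAM genes, many of them known from the male germ line, were dim. Of the 34 ADAM genes, 22 lay below background in both groups, with changes between -0.33 and 0.45. Adam3, a sperm protein gene, was called higher there, with 4.63, 4.66 and 4.48 in DMSO and 5.19, 4.94 and 5.003 in FR (log2 change 0.45, adjusted p = 0.00504). Adam34 and Adam26a were called lower there (log2 change -0.29 and -0.33, adjusted p = 0.0461 and 0.0492). Adam34 was not called when DMSO replicate 2 (adjusted p = 0.14) or 3 (0.147) or FR replicate 1 (0.0734) or 3 (0.133) was left out. Adam26a was not called when DMSO replicate 1 (0.183) or 3 (0.119) or FR replicate 1 (0.0972) or 3 (0.142) was left out. Over the alternatives adjusted p was as low as 0.0207 for Adam34 and 0.0186 for Adam26a. Adam1a, just above background, had a change of 0.36 (adjusted p = 0.0282) with 5.74, 5.77 and 5.75 in DMSO and 5.95, 6.35 and 6.05 in FR. FR replicate 2 read highest, and without it the change was 0.24 (adjusted p = 0.0713). The call also did not hold when DMSO replicate 1 (0.074), 2 (0.0648) or 3 (0.0731) was left out, and adjusted p ran from 0.0108 to 0.129 over the alternatives. Over all families 35 of the 83 genes lay below background in both groups, and 2 of them were called higher and 2 lower. Among all 6932 genes at such levels, 10.6% were called higher and 1.57% lower, and their median change was 0.113.

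Genes that act on or beside these proteases, from lists drawn up by role, moved in both directions. Among 20 activators and regulators, 5 were higher and 4 lower (median change 0.147). Among all genes, 13.4% were higher and 14.5% lower, with a median change of 0.053. Furin, the convertase that activates MMP11, MMP14 and many ADAMs, fell from 8.29 ± 0.136 to 7.58 ± 0.055 (mean ± SD, n = 3, log2 change -0.71, limma adjusted p = 0.000206), while the convertase gene Pcsk5 rose by 0.82. Pcsk6, another convertase gene, was below background in DMSO and at least 1.29-fold higher with DMSO set at that level (measured log2 change 0.53). Rhbdf1, which escorts ADAM17 to the surface, and Tspan14 and Tspan17, partners of ADAM10, were lower, with log2 changes of -0.36, -0.45 and -0.39. The other Tspan genes of the list, Tspan5, Tspan10, Tspan15 and Tspan33, were not called (log2 changes 0.10, 0.22, 0.14 and 0.24). Tspan15 and Tspan33 lay below background in both groups. Rhbdf2 was not called either (log2 change -0.12). Reck, a membrane inhibitor of MMPs, was not called (log2 change 0.23, adjusted p = 0.0749).

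Of 16 other extracellular metalloproteinases and helpers, 5 were higher and 5 lower (median -0.005). For this list and the next ones, the shares among all genes were again 13.4% higher and 14.5% lower (median 0.053). Pappa2 and the aminopeptidase gene Enpep were below background in DMSO. With DMSO set at that level they were at least 7.34-fold and 4.33-fold higher in FR (measured log2 changes 3.11 and 2.34). Anpep and Mme were lower, with log2 changes of -0.70 and -0.49. The procollagen C-proteinase gene Bmp1 rose by 0.47. Its relative Tll1 was below background in FR and at least 2.28-fold lower with FR set at that level (measured log2 change -1.45). The enhancer genes Pcolce and Pcolce2 fell by 0.64 and 0.56. Of 17 ADAMTS substrates and partners, 4 were higher and 4 lower (median 0.159). Vcan, the versican gene, rose by 0.41, the procollagen genes Col1a1 and Col1a2 fell by 1.09 and 1.57 and Col3a1 rose by 0.66, while Acan was not called (log2 change 0.20, adjusted p = 0.123). Of 24 ADAM substrates, 9 were higher and 5 lower (median 0.111). Ereg, which encodes the EGF receptor ligand epiregulin, rose from 6.31 ± 0.313 to 9.01 ± 0.155 (n = 3, limma adjusted p = 3.46e-07). Hbegf, another such ligand, had a change of -0.23 that was not called (adjusted p = 0.0797).

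Markers of other cell types moved with the treatment beside these genes. Among all genes the shares were 13.4% higher and 14.5% lower. Fibroblast markers were all above background, and 3 of 10 were higher and 6 lower (median change -0.684). Their mean level was 10.94 to 11 on the DMSO arrays and 10.66 to 10.72 on the FR arrays. Keratinocyte markers, whose cells make MMP28 and MMP10, were higher in 10 of 12 cases and lower in 0, with a mean level of 5.956 to 6.032 on the DMSO arrays and 6.963 to 7.139 on the FR arrays. Adipocyte markers were higher in 6 of 6 (7.069 to 7.186 against 9.0 to 9.193), and muscle markers, whose cells make ADAM12, in 5 of 6 (5.945 to 6.018 against 7.035 to 7.152). Of 7 neutrophil markers, 4 were higher (4.958 to 5.028 against 5.509 to 5.618) and 4 lay below background in both groups, while the neutrophil gene Mmp8 fell. Those higher were S100a8, S100a9, Camp and Ly6g, and those below background were Ly6g, Elane, Mpo and Ltf. Of 10 macrophage markers, 2 were higher and 7 lay below background (4.949 to 5.061 against 5.093 to 5.25), and the macrophage gene Mmp12 was below background too. Of 6 endothelial markers, 2 were higher and 5 lay below background (4.987 to 5.071 against 5.264 to 5.295). The 2 higher endothelial markers, Tek and Emcn, were among those below background. So were Fcer1g of the higher macrophage markers and Ly6g of the higher neutrophil markers. Among all genes below background in both groups, 10.6% were called higher. RMA levels have no true 0, so no marker can be called absent. The part of these cell types in the changes was not tested.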

How the data were processed

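Total RNA was hybridised to 6 one-colour Affymetrix arrays, 3 a group, grouped by their titles. The deposited log2 values came from RMA and the oligo package, per the submitters' processing notes; their versions are not given in the sources used here. The usual RMA corrects background, normalizes by quantiles and summarises probes, and tends to compress weak signals. No further normalization was applied. Of 35556 probe sets, 21789 had 1 gene symbol in the platform annotation, giving 19938 genes. The test was limma's (version 3.58.1, R 4.3.3; lmFit, eBayes, two-sided, group as the only term, Benjamini-Hochberg over all genes, threshold 0.05), and its steps were tested on simulated data. With the labels silent on separate cultures, p-values reflect only how these arrays spread, which may be technical. Precision is limited by the number of arrays (median standard error of a change 0.0962).

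Where 1 group's mean lay below background, the bound sets each array of that group at no less than the background level. Per-array values are given for the 12 largest rises and falls called and for fixed members (all Timp genes, Mmp2, Mmp14, Adam10, Adam17, Adamts1, Adamts5), and further called members by choice after their values were seen. The genes, the lists and the tests were chosen with earlier results of these data known, and the promoter motifs and gene order were looked at after the changes were seen. A planned description of protein motifs was not made. Promoters and gene order are RefSeq's (GRCm38.p6), and 52 of the 83 genes had a promoter in that table. No array coordinates are given, since the build is not given in the sources used here. Correlations of the deviations of same-numbered DMSO and FR arrays were -0.073, 0.047 and -0.034, so the numbers were not taken to pair the arrays. Alternatives were quantile normalization, centring, cyclic loess, leaving out dim genes, the mean of probe sets, every probe set tested, trend with robust moderation, array weights, ordinary variance, a test against a change of 0.5, a block for the replicate number, and each array left out in turn. Ranges over the alternatives in the report leave out the test against 0.5.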

Additional observations from a re-analysis of the deposited data

How the results depend on the processing

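Of the 34 calls among the 83 genes, 24 held under every alternative that tested them except the test against a log2 change of 0.5, which is a stricter question. That test called 3 higher (Adam23, Mmp3 and Adamts15) and 6 lower (Adamts6, Mmp11, Timp3, Mmp16, Mmp13 and Mmp8) among the 83, and 412 higher and 430 lower among all genes. With ordinary variance 1484 and 1880 of all genes were called. Leaving out 1 array gave 15 to 17 higher and 14 to 16 lower among the 83, and 1803 to 2975 higher and 2230 to 2939 lower among all genes. The change of Adam17 had the opposite sign with quantile normalization (0.057), with cyclic loess (0.077) and without FR replicate 3 (0.057), against -0.078 without FR replicate 1, and was called under none of them. The sign also turned for Adam15 with quantile normalization (0.045) and cyclic loess (0.039), with a range of -0.065 to 0.027 when 1 array was left out, and for Adamtsl2, with a range of -0.119 to 0.05. Neither was called in any of these. Leaving out 1 array gave 1 to 2 lower ADAMTS genes, 0 to 2 lower ADAM genes and 0 to 1 higher ADAMTSL genes. Without dim genes, some of those described were not tested. With the replicate number as a block, 16 were higher and 15 lower among the 83, and 2311 and 2666 among all genes. The calls lost under the block were those of Adamts18, Adam26a and Adam34. For other background levels, 30 (90th percentile) to 46 (99th percentile) genes lay below background in both groups in place of 35. At the 99th percentile, a level of 6.23, these included the called genes Mmp28, Timp4, Adamts19, Adam8, Adam1a and Adamtsl3. Every bound given in the report rests on the level of 5.65. With a level of 6.23, Mmp28, Timp4, Adamts19, Adam8 and Adamtsl3 would have no bound. The same holds for Pcsk6, with means of 5.492 in DMSO and 6.019 in FR. The cause of these shifts was not tested. Dim probe sets limit what can be said of the 35 dim genes.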
